A study of Mus musculus with 4 samples.

Results

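Keratins and epidermal transcripts were followed in RNA from cells labelled as regulatory T cells of mouse skin. The members were the 54 genes of the deposited tables with a keratin symbol, Krt followed by a number and at most 1 letter, plus 14 named genes of the epidermal envelope, cell contacts and epidermal regulation, 68 of 55487 genes in all. They were chosen by name, with earlier results of these data already known. All mice had psoriasiform dermatitis, induced on the shaved back with 60 mg per day of a 5% imiquimod cream, a TLR7 agonist. The non-UVB group, called unirradiated here, received no ultraviolet light, and the UVB group, called irradiated, was exposed to narrow-band ultraviolet B (UVB) 3 times, on alternate days. The sources used here do not give strain, sex, age or the way the cells were isolated, and name no transgene. Each group had 2 libraries, numbered 1 and 2 in the labels. Whether these were separate animals is not stated, and p-values cover only the spread among the libraries, which may be technical.

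Keratins are the intermediate filament proteins of epithelia, and each filament pairs a type I with a type II keratin. Dividing keratinocytes of the basal layer make the pair Krt14 and Krt5, and cells that leave this layer switch to Krt10 and Krt1 before they build the cornified envelope. Injured or inflamed epidermis, psoriasis included, adds the wound-induced keratins Krt6a, Krt6b, Krt16 and Krt17, and the hair follicle has a large set of its own. T cells are not known for keratin filaments.

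Depth, read from the authors' coverage and FPKM, was about 34100000 and 24700000 reads of 100 bases for the unirradiated pair and 42000000 and 23800000 for the irradiated pair, replicate 1 first. Levels below are TPM, an abundance per transcript length that sums to 1000000 in each library, and each pair of values gives replicate 1 first. The T cell receptor signalling chain Cd3g, a check of the T cell label, lay between 848 and 2701 TPM in the 4 libraries. Foxp3, which defines regulatory T cells, was listed at 0 and stood at 19.4 TPM in unirradiated replicates 1 and 2, and at 3.49 and 19.3 TPM in irradiated replicates 1 and 2. A value of 0 is described only as listed at 0, because 16, 6, 4 and 2 of 114 proteasome and mitochondrial ribosome genes, which every cell uses, were also listed at 0 in unirradiated replicates 1 and 2 and irradiated replicates 1 and 2.

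Most keratin genes were listed at 0 in every library. Of the 54 keratins, 40 were, and 13 reached 1 TPM in at least 1 library. The remaining keratin, Krt7 of simple epithelia, had 0.00218 TPM in irradiated replicate 1 alone. Of the 14 other members, 10 reached 1 TPM somewhere, Flg stayed below it, and Lor, Ivl and Dsg1a were listed at 0 in all 4 libraries. Together 25 of the 68 members were above 0 in at least 1 library, beside 20976 of all 55487 genes. The 68 members summed to 577 and 5347 TPM in unirradiated replicates 1 and 2 and to 897 and 5960 TPM in irradiated replicates 1 and 2. Both libraries numbered 2 were thus above both libraries numbered 1, by 9.26-fold without and 6.65-fold with UVB, while the groups overlapped. Keratins alone took 0.0321% and 0.339% of all TPM in unirradiated libraries 1 and 2, and 0.0456% and 0.364% in the UVB libraries. In bulk RNA, fewer cells of a type and less RNA per cell cannot be told apart.

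**Figure D1:**
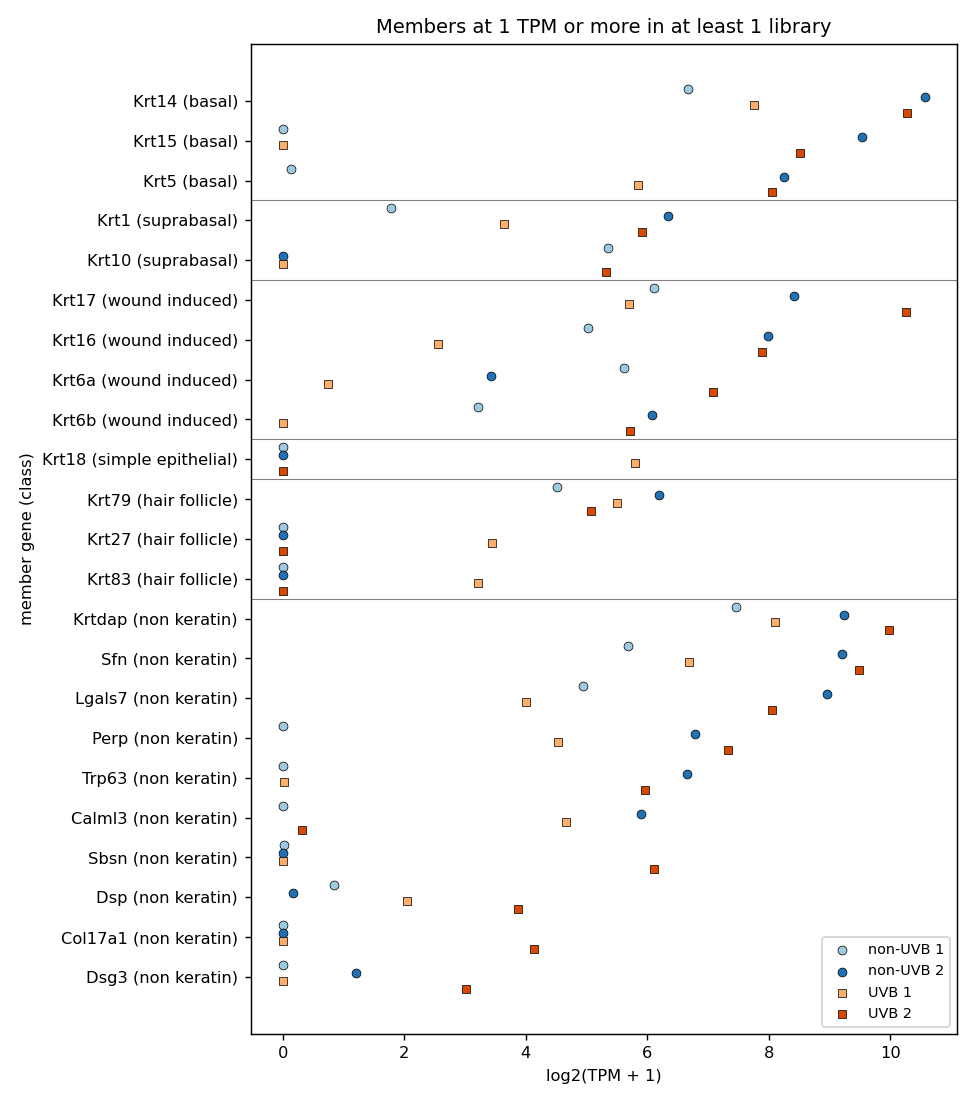
Level of the 23 members that reached 1 TPM in at least 1 library, as log2(TPM + 1) on the x axis, with 1 point per library (circles non-UVB, squares UVB, darker shades for libraries numbered 2) and points set apart vertically so that none is hidden. Krt14 runs from 101 to 1526 TPM with both darker points on the right, whereas Krt10 is listed at 0 in 1 darker and 1 lighter library.

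Basal keratins made up the largest class by summed level in 3 of the 4 libraries, unirradiated replicate 1 being the exception. Krt14 (chromosome 11, 100203162 to 100207548, minus strand, GRCm38), the type I keratin of basal cells, had 101 and 1526 TPM in unirradiated replicates 1 and 2 and 214 and 1232 TPM in irradiated replicates 1 and 2. Its mean read depth per base was 221 and 2531 in the former and 561 and 1944 in the latter. Krt14 had the highest mean of all members over the 4 libraries, although Krtdap lay above it in both libraries numbered 1. Its libraries numbered 2 lay far above those numbered 1 while the groups overlapped. Krt5 (chromosome 15, 101707070 to 101712898), its type II partner, had 0.0953 and 304 TPM in unirradiated libraries 1 and 2, and 56.6 and 266 TPM in the irradiated ones. The ratio of Krt14 to Krt5 was 5.02, 3.78 and 4.64 in unirradiated replicate 2 and irradiated replicates 1 and 2. In unirradiated replicate 1 it was 1062, where Krt5 had a read depth of 0.216 per base. Krt15, a type I keratin of basal cells and of the follicle bulge, was listed at 0 in both libraries numbered 1 and had 739 and 364 TPM in non-UVB and irradiated replicate 2. Relative to Krt14, Krt15 stood at 0.484 and 0.295 in those 2 libraries.

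Sequences before the start sites are shown for the basal keratin Krt5, for Krtdap, the most abundant member that is not a keratin, and for Krt10, whose libraries did not order by number. They are the 150 bases before the RefSeq start on GRCm38.p6, 5′ to 3′ on the gene's strand, at chr15:101712906-101713055 (minus) for Krt5, chr7:30787755-30787904 (plus) for Krtdap and chr11:99389365-99389514 (minus) for Krt10. Capitals mark matches to TATAAA, the TATA box, and to TGANTCA, the AP-1 motif. GCCNNNGGC, the AP-2 motif, was also searched and had no match in these stretches. All 3 motifs were sought on both strands, and no match overlapped another.
Krt5: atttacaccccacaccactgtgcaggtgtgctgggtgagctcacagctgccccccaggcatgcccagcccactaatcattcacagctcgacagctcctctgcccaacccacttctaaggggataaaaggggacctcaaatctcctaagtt
Krtdap: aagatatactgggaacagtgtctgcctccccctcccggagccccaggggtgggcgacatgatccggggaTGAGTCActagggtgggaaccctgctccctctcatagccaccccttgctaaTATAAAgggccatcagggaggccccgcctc
Krt10: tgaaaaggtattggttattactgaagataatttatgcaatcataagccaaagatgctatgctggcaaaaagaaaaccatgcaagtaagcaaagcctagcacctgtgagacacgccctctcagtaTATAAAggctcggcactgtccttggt
TATAAA begins 30 bases before the Krtdap start and 26 bases before the Krt10 start, at positions -30 and -26. TGANTCA begins at position -81 in Krtdap. The Krt5 stretch holds no match to the 3 motifs. The one RefSeq entry for Krt14 starts 1518 bases inside the annotated gene, so its stretch is not shown. In windows of 300 bases, 250 before to 50 after the start, 24 of the 45 members matched to RefSeq (53.3%) held TATAAA, against 15.7% of 27025 genes. Among the 12 of them that averaged 1 TPM or more, 4 held it. The RefSeq start was within 100 bases of the annotated 5′ end for 41 of the 45. TGANTCA was in 6 of the 45 (13.3%, against 8.97%) and GCCNNNGGC in 8 (17.8%, against 18.5%). A match is a description of letters and shows no binding. Of the other members named below, the keratins Krt15, Krt83, Krt80, Krt4, Krt1, Krt17, Krt16, Krt6a and Krt6b had no entry in this table. Neither did Perp, Trp63, Calml3, Dsg3 and Dsg1a.

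Suprabasal keratins were low and did not move as a pair. Krt1 (chromosome 15, 101845426 to 101850794), the type II keratin of the spinous layer, had 2.42 and 80.2 TPM in unirradiated libraries 1 and 2, and 11.5 and 59.3 TPM in the irradiated ones. Krt1 followed the order of Krt14, with both libraries numbered 2 on top. Its partner Krt10 (chromosome 11, 99385254 to 99389364) had 39.8 TPM in unirradiated replicate 1 and 39.0 TPM in irradiated replicate 2 and was listed at 0 in the other libraries. Krt10 was therefore listed at 0 in unirradiated replicate 2, the library with the highest Krt1 level. Krt10 shares exon sequence with the antisense gene Gm11940, which was listed at 0 in all 4 libraries. The other suprabasal keratins, Krt2, Krt77, Krt78 and Krt80, were listed at 0 throughout. Loricrin (Lor) and involucrin (Ivl), proteins of the cornified envelope, and Dsg1a, a desmoglein of the upper epidermis, were likewise at 0. Filaggrin (Flg), which bundles keratin filaments in the granular layer, reached at most 0.376 TPM, in irradiated replicate 2.

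All 4 wound-induced keratins were detected. Krt17 (chromosome 11, 100256217 to 100261029), a type I keratin induced by injury and present in the follicle, had 68.0 and 339 TPM in unirradiated libraries 1 and 2, and 51.1 and 1226 TPM in the irradiated ones. In irradiated replicate 2 Krt17 about equalled Krt14, at a ratio of 0.995, while the ratio was 0.672 and 0.222 in unirradiated replicates 1 and 2 and 0.239 in irradiated replicate 1. Krt16, its neighbour on chromosome 11, had 31.4 and 253 TPM in unirradiated libraries 1 and 2, and 4.90 and 236 TPM in the irradiated ones. Both keratins were higher in the 2 libraries numbered 2 than in those numbered 1. Krt6b had 8.24 and 66.3 TPM without UVB, was listed at 0 in irradiated replicate 1 and had 51.5 TPM in irradiated replicate 2. Krt6a broke that order, with 48.2 and 9.78 TPM in unirradiated replicates 1 and 2 and 0.681 and 134 TPM in irradiated replicates 1 and 2.

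The split between Krt6a and Krt6b is uncertain. Their mRNAs, of 2278 and 2235 bases, were 90.5% identical, and 643 of the 2179 stretches of 100 bases in Krt6a also occurred in Krt6b, so reads of that length could be assigned to either. The 2 genes together had 56.5 and 76.1 TPM in unirradiated replicates 1 and 2 and 0.681 and 186 TPM in irradiated replicates 1 and 2. The sum was highest in irradiated replicate 2 and lowest in irradiated replicate 1. Krt14 and Krt16 shared 46 of 1599 such stretches, Krt5 and Krt6a 50 of 2098, and no stretch was shared by Krt16 and Krt17 or by Krt14 and Krt15. Exons of Krt6a also overlap those of the antisense gene Gm49428, which had 3.75 TPM in irradiated replicate 2 and was listed at 0 elsewhere. Strandedness was not given, so Krt6a and Gm49428 cannot be fully separated.

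Most hair keratins were listed at 0. Of the 25 keratins of hair and hair follicle, 22 were listed at 0 in every library, including all listed keratins of the hair shaft except Krt83. Krt79 (chromosome 15, 101929332 to 101940324), which marks the upper follicle and sebaceous duct, was the exception, with 22.0 and 71.9 TPM in unirradiated libraries 1 and 2, and 44.1 and 32.8 TPM in the irradiated ones. Krt79 varied least among the keratins at 1 TPM or more in all libraries, and neither the groups nor the numbers separated it. Krt27, of the inner root sheath, and Krt83, of the hair shaft, appeared in irradiated replicate 1 alone, at 9.94 and 8.26 TPM. Krt18, the type I keratin of simple epithelia, also appeared in that library alone, at 54.4 TPM, without its partner Krt8, which was listed at 0 in all 4 libraries. The other 10 keratins, among them Krt4 and Krt13 of mucosa and Krt9 of palms and soles, were listed at 0 throughout.

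The non-keratin members gave the same order in part. Krtdap (chromosome 7, 30787896 to 30791097), a secreted protein of differentiating keratinocytes, had 175 and 605 TPM in unirradiated libraries 1 and 2, and 274 and 1008 TPM in the irradiated ones. Sfn, the 14-3-3 protein of stratified epithelia, had 50.5 and 589 TPM against 102 and 719 TPM, non-UVB first. Lgals7, a galectin of stratified epithelia, had 29.7 and 494 TPM against 15.1 and 266 TPM. All 3 genes were higher in both libraries numbered 2. Relative to Krt14, Sfn stayed between 0.386 and 0.583 in the 4 libraries, whereas Krtdap ranged from 0.396 to 1.73.

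Trp63 (chromosome 16, 25683763 to 25892102), the transcription factor that maintains basal keratinocytes, was listed at 0 and had 100.0 TPM in unirradiated replicates 1 and 2, and had 0.0147 and 61.7 TPM in irradiated replicates 1 and 2. Perp, a desmosomal protein and target of p53 family factors, had 0 and 110 TPM in unirradiated libraries 1 and 2, and 22.1 and 160 TPM in the irradiated ones. Trp63 and Perp were thus higher in both libraries numbered 2, although Trp63 reached 1 TPM only there and so had to differ. Dsp, which links desmosomes to keratin filaments, was low, with 0.789 and 0.124 TPM against 3.12 and 13.6 TPM, and was the one tested member whose UVB libraries both lay above both non-UVB libraries. Dsg3, the desmoglein of the lower epidermis, had 0 and 1.32 TPM against 0 and 7.08 TPM. Calml3, a calmodulin-like epithelial protein, was crossed, with 0 and 58.3 TPM against 24.2 and 0.246 TPM. Sbsn, a suprabasal secreted protein, and Col17a1, the hemidesmosomal collagen of basal cells, reached 68.0 and 16.5 TPM in irradiated replicate 2 and were at or near 0 elsewhere. Exons of Sbsn overlap those of Tmem147os, which had 7.78 TPM in the same library, and the 2 cannot be fully separated.

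The order by library number was common among members. Of the 18 members with at least 1 TPM in at least 2 libraries, 13 were higher in both libraries numbered 2 than in both numbered 1, where 22.5% of all 10286 such genes were, and 0 were lower in both, where 18.5% of all genes were. This count is not free of that minimum, since 3 of the 13 reached 1 TPM only in the libraries numbered 2. Of the 8 members at 1 TPM or more in all 4 libraries, 7 were higher in both libraries numbered 2, where 26.9% of 4803 genes were, and 0 were lower, where 17.6% were. The median log2 difference of these 8 members, number 2 minus number 1, was 3.24 without and 2.66 with UVB, beside 0.21 and 0.07 for all 4803 genes. Earlier results of these data had already shown this order for keratinocyte markers, and no test was run on it.

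Markers of other cells moved with the number too. The 5 regulatory T cell markers summed to 765 and 3839 TPM in unirradiated replicates 1 and 2 and to 1041 and 3140 TPM in irradiated replicates 1 and 2, with 4 of the 5 higher in both libraries numbered 2. The 7 gamma-delta T cell markers went the opposite way, with sums of 11150 and 1079 TPM against 10338 and 1101 TPM, all 7 lower in the libraries numbered 2. The 7 markers of macrophages had sums of 4015 and 416 TPM, against 8696 and 3341 TPM, all 7 lower in the libraries numbered 2. Among these 7, Csf1r was nearly equal with UVB, at 107 and 104 TPM in irradiated replicates 1 and 2. Of all genes tested, 22.5% were higher and 18.5% lower in both libraries numbered 2. Mitochondrially encoded genes took 0.857% and 5.73% of TPM without UVB and 0.487% and 6.42% with UVB. Unirradiated replicate 1 also held 11.7% of its TPM in haemoglobin genes, where the other libraries held at most 0.441%. The part of these differences in the keratin order was not tested.

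Many markers of some other skin cells were listed at 0, which is no measured absence. All 5 Merkel cell markers were listed at 0 in every library, and so were 4 of 5 melanocyte markers, Tyr, Tyrp1, Mlana and Pmel. Of 6 fibroblast markers, Col1a1, Col3a1, Dcn and Pdgfra were listed at 0 throughout. Lum reached 1 TPM in both libraries numbered 1 and in neither numbered 2. Its highest level was 55.7 TPM, in unirradiated replicate 1. Of 5 endothelial markers, 4 were at 0 throughout and Pecam1, which leukocytes also express, had 7.17 to 82.7 TPM. Markers of Langerhans cells, the dendritic cells of the epidermis, added up to 3652 and 2669 TPM in the unirradiated pair and to 5186 and 5306 TPM in the irradiated pair. Cd74 alone made up most of each sum, with 3101 and 1940 TPM against 4237 and 3838 TPM. Cd207 had 147 and 110 TPM against 113 and 262 TPM, so its groups overlapped. For 4 of the 6 markers both UVB libraries were above both non-UVB libraries, beside 23.2% of all genes. Of these 4, 2 reached 1 TPM only with UVB and so had to differ. For the 6 markers of CD4 T cells the sums were 6379 and 5946 TPM without UVB, against 5518 and 3474 TPM with UVB. The single markers did not all follow these sums. Cd4 and Trac were higher in both libraries numbered 2, whereas Cd3g and Cd3e were lower in both. Cd4 itself had 6.02 and 138 TPM in unirradiated replicates 1 and 2, and 33.9 and 71.6 TPM in irradiated replicates 1 and 2.

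**Figure D2:**
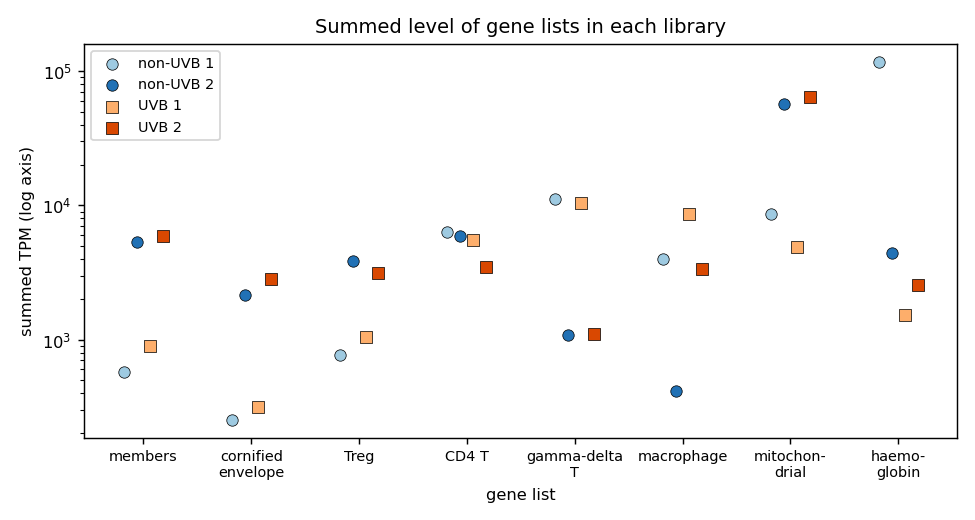
Summed TPM (y axis, log scale) of the 68 members, the cornified envelope list, marker lists of 4 immune cell types, mitochondrially encoded genes and haemoglobin genes, with 1 point per library (circles non-UVB, squares UVB, darker shades for libraries numbered 2). The darker points lie above the lighter ones for the members, at 5347 and 5960 against 577 and 897 TPM, and below them for gamma-delta T cell markers.

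The make-up of the keratins differed between libraries of the same group. Basal keratins took 31.5% and 75.8% of keratin TPM in unirradiated replicates 1 and 2 and 59.4% and 51.1% in irradiated replicates 1 and 2. Wound-induced keratins took 48.5% and 19.7% against 12.4% and 45.3%. Unirradiated replicate 1 and irradiated replicate 2 thus had larger wound-induced shares than the other 2 libraries. The suprabasal class held 13.1% in unirradiated replicate 1, and 2.37% to 2.70% in the other libraries. Hair and follicle keratins took 6.83% and 2.12% without UVB and 13.7% and 0.902% with UVB, and simple epithelial keratins took 11.9% in irradiated replicate 1 alone.

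With UVB the wound-induced share was 28.9% ± 23.2 and without it 34.1% ± 20.4 (SD, n = 2 per group), a difference of -5.25 percentage points that was smaller than either SD. The basal share was 55.3% ± 5.86 against 53.7% ± 31.3. Suprabasal keratins took 2.62% ± 0.118 against 7.75% ± 7.62. The classes moved in opposite ways within the 2 numbers. Between UVB and unirradiated replicate 1, summed basal keratins stood at 2.67-fold and wound-induced ones at 0.364-fold, whereas between the libraries numbered 2 they stood at 0.725-fold and 2.47-fold.

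**Figure D3:**
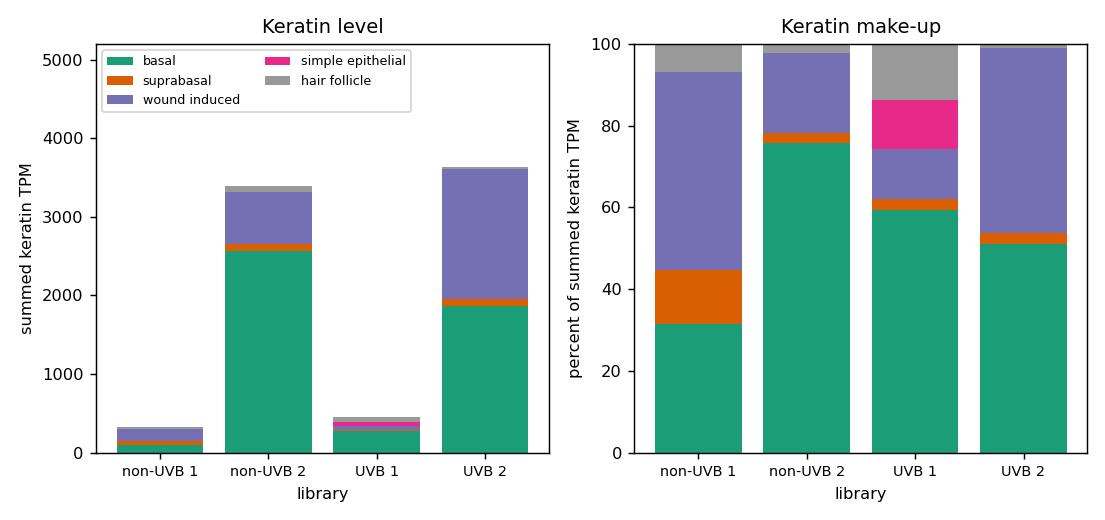
Summed TPM of keratins by class (left, y axis in TPM) and the percent of summed keratin TPM that each class took (right), as stacked bars with 1 bar per library. Keratin totals were 321 and 3389 TPM in non-UVB 1 and 2 and 456 and 3641 TPM in UVB 1 and 2, and the wound-induced share was 48.5%, 19.7%, 12.4% and 45.3% in the same order.

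No member passed the test for a difference with UVB. Of the 18 members tested with limma on log2(TPM + 1), 0 had an adjusted p under 0.05 after Benjamini-Hochberg adjustment over 10286 genes, and 0% of all genes did. No member had an unadjusted p under 0.05 either, where 11.3% of all genes did. A member below 1 TPM in 3 or more libraries was not tested, which left out 50 of the 68. Both UVB libraries lay above both non-UVB libraries for 1 of the 18, Dsp, where 23.2% of all genes did, and below them for 0, where 9.71% did. The median difference of the 18 was 0.18 log2, beside 0.26 for all genes tested, with 9 means higher and 9 lower. That median of all genes was -0.19 after quantile normalization and -0.27 after median scaling, where the median of the members was -0.02 and -0.23.

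For each of the 10 tested keratins the difference was smaller than its standard error. Krt14 differed by 0.38 ± 1.69 log2, UVB minus non-UVB (SE, n = 2 per group), and turned to -0.26 after median scaling. Krt5 differed by 2.76 ± 3.07 and Krt15 by -0.51 ± 4.64. Krt17 stood at 0.72 ± 1.87, Krt16 at -1.28 ± 2.26, Krt6a at -0.61 ± 2.56 and Krt6b at -1.78 ± 2.50. Krt1 stood at 0.72 ± 2.01, Krt10 at -0.01 ± 2.88 and Krt79 at -0.07 ± 0.90. For Krt14, Krt1 and Krt6a the group means in TPM differed in the other direction than the log2 means, at 814 without and 723 with UVB, 41.3 and 35.4, and 29.0 and 67.6 TPM. The limma adjusted p was 1.0 for each of these keratins.

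Among the other members, Dsp had the smallest limma p, at 0.0638 unadjusted and 0.513 adjusted, with a difference of 2.45 ± 0.96 log2. Dsp reached 1 TPM only in the UVB libraries, so it could be tested only by differing. Krtdap differed by 0.69 ± 0.98 and Lgals7 by -0.91 ± 2.10, and these were alike within the libraries of each number, at 0.65 and 0.74 for Krtdap and -0.93 and -0.89 for Lgals7. Sfn stood at 0.64 ± 1.66, Perp at 2.53 ± 2.75, Trp63 at -0.33 ± 3.37, Calml3 at -0.46 ± 2.81 and Dsg3 at 0.90 ± 1.23. The exclusion of 1 library turned the sign of 17 of the 18 differences, the exception being Dsp.

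**Figure D4:**
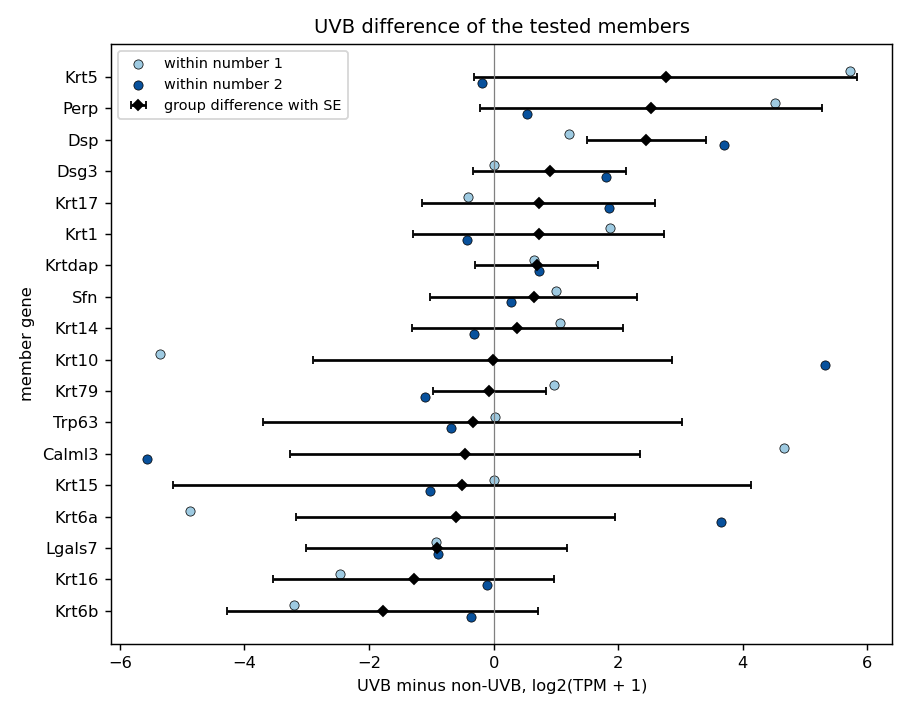
UVB minus non-UVB difference in log2(TPM + 1) for the 18 tested members (x axis), as group differences with their SE (diamonds, n = 2 per group) and as differences within the libraries numbered 1 (light points) and 2 (dark points). Krt10 lies at -0.01 with its points at -5.35 and 5.32, and the SE bar of Dsp, at 2.45 ± 0.96, does not reach 0.

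Other epidermal genes, listed by role, gave related pictures. Of 86 such genes found, 40 were tested and 0 passed the adjusted threshold with limma, and 4 had an unadjusted p under 0.05, beside 11.3% of all genes. Both libraries numbered 2 were above both numbered 1 for 22 of the 40, beside the 22.5% of all genes given above, and below them for 2. Of these 22, 9 reached 1 TPM only in the libraries numbered 2 and so had to differ. Of 22 genes of the cornified envelope, 8 were tested and all 8 were higher in both libraries numbered 2, although Lce3c could be tested only for that reason. Among them Sprr2d, a small proline-rich envelope protein, had 0.16 and 587 TPM in unirradiated libraries 1 and 2, and 61.0 and 419 TPM in the irradiated ones, and Stfa3, a cysteine protease inhibitor, had 128 and 430 TPM against 91.8 and 487 TPM. Both belong to families of similar copies, so their split is uncertain. Of the 22, 9 were listed at 0 in every library, among them Casp14, Tgm3, Ppl and Flg2.

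Of 15 genes of desmosomes and junctions, 8 were tested and 5 were higher in both libraries numbered 2, but 3 of these 5 reached 1 TPM only there and so had to differ. Pkp3, a plakophilin, had 103 and 205 TPM in unirradiated libraries 1 and 2, and 251 and 128 TPM in the irradiated ones, and Cldn4, a claudin, had 0.0289 and 130 TPM against 18.6 and 337 TPM. Of 10 genes of the basement membrane zone, 5 were tested. Of the 5, 1 was higher and 1 lower in the libraries numbered 2, beside 22.5% and 18.5% of all genes. The higher gene, Dst, reached 1 TPM only there and so had to differ. Itga6, the laminin receptor chain that basal keratinocytes and some leukocytes share, had 0.0266 and 0.162 TPM against 11.3 and 17.0 TPM. It had the smallest limma p of these lists, 0.00987 unadjusted and 0.223 adjusted, and reached 1 TPM only in the irradiated libraries. Cd151, a tetraspanin, had 54.7 TPM in unirradiated replicate 2 and Plec, a plakin, had 2.29 to 25.2 TPM.

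Barrier proteases and surface proteins gave 6 tested genes of 14, and all 6 had a higher mean log2(TPM + 1) with UVB, as did 61.0% of all genes. Both libraries numbered 2 were above both numbered 1 for 3 of the 6, beside 22.5% of all genes. In all the related lists, both UVB libraries were above both non-UVB libraries for 7 of 40 tested genes and below for 1. The shares of all genes were 23.2% and 9.71%. Of the 6 barrier genes, 3 were above in this way with UVB. Klk7 and Ly6g6c, 2 of these 3, reached 1 TPM only in the irradiated libraries and could be tested only by differing. Ly6d, a surface protein of keratinocytes that B cells share, had 64.9 and 282 TPM in unirradiated libraries 1 and 2, and 116 and 478 TPM in the irradiated ones, and Dmkn, a secreted epidermal protein whose mean in TPM was lower with UVB, had 60.5 and 334 TPM against 145 and 169 TPM. Of 15 epidermal regulators, 5 were tested and 4 of them were higher in both libraries numbered 2, but 3 of these 4 reached 1 TPM only there and so had to differ. Klf4 had 55.8 and 15.8 TPM against 6.78 and 37.2 TPM, and Klf5 had 126 TPM in irradiated replicate 2 and at most 0.149 TPM elsewhere. Keratinocyte cytokines and growth factors, many of which immune cells also make, gave 8 tested genes of 10 found. Of the 8, 1 was higher and 1 lower in the libraries numbered 2, beside 22.5% and 18.5% of all genes. The higher gene, Tgfa, reached 1 TPM only there and so had to differ. The level of Areg, an EGF family ligand, was 1626 and 775 TPM, against 675 and 980 TPM, and the chemokine Cxcl1 had 250 and 587 TPM against 323 and 319 TPM.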

How the data were processed

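RNA was measured in 4 libraries, 2 non-UVB and 2 UVB. Per the labels' protocols, total RNA went into an ultra-low-input kit and single-end sequencing. The submitters' processing notes name HISAT2, StringTie, DESeq2 and the build GRCm38. Roles, versions, annotation and strandedness were not given in the sources used here. Per the file headers, the authors deposited coverage (a signal, the mean read depth per base), FPKM and TPM per gene. Depth was taken as the highest ratio of deposited coverage to FPKM. Whole reads were not recovered, so no count test or counting interval is given.

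Rows of a gene ID were summed. The test, run on all genes that reached 1 TPM in 2 or more libraries, was limma 3.58.1 (R 4.3.3) on log2(TPM + 1), which understates changes of low genes, with group as the only term, an intensity trend and Benjamini-Hochberg adjustment. The median SE was 1.12 log2. The fit was run on simulated data with the same spread for all genes, smaller than their average spread in these libraries. That run does not show how the fit behaves at the spread seen here. All 68 members had the same coordinates in GENCODE M21, whose mRNAs were aligned with Biopython 1.88. Named were all non-keratin members, up to 6 keratins per class averaging 1 TPM or more, and the 2 most abundant genes of each related list. Further genes, such as Itga6 and Krt7, were named after their values were seen. Members and lists were chosen with earlier results of these data known. Alternatives changed the pseudocount, filter, unit, scaling, spread model, duplicate rows and libraries, and left out Krt6a and Krt6b. TPM without haemoglobin was added after seeing the data.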

Additional observations from a re-analysis of the deposited data

How the results depend on the processing

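The order of the member sum by library number was kept under every alternative run on it, with a mean log2 ratio of 2.97 and a range of 2.73 to 3.24. Leaving out 1 library could not change this order, since it only left the ratio of the other group, 2.73 or 3.21. The highest row gave the same 2.97. Counts of called members and of called genes stayed at 0 under every alternative that refitted the test, and no named member passed in these. The exclusion of Krt6a and Krt6b was applied to sums and shares alone. The replicate block left the median of the members at 0.18 and the counts at 0, with 1110 genes at an unadjusted p under 0.05. The same-numbered libraries deviated together only weakly (correlation 0.165), and with 2 numbers this does not show pairing. UVB differences were unstable, and the cause was not tested. The log2 difference of the member sum, 0.21, was -0.62 after median scaling and -1.72 to 2.57 when 1 library was left out. The median of the members was -0.0229 after quantile normalization, -0.23 after median scaling and -1.21 to 2.23 when 1 library was left out. The wound-induced share difference was -21.7 to 11.2 percentage points, the suprabasal -10.5 to 0.25 and the basal -20.5 to 23.8 when 1 library was left out, and the basal difference was -1.20 without Krt6a and Krt6b, against 1.61. Calml3 turned to 0.26 with a pseudocount of 0.1, Krt10 to 0.00995 with FPKM, Krt1 to -0.0379 after quantile normalization and Krt14 to -0.26 after median scaling. When 1 library was left out, with the lone library assumed to vary like the other group and the same genes tested, log2 differences ran from -0.25 to 1.63 for Krtdap, -1.12 to 2.40 for Sfn, -2.94 to 1.11 for Lgals7, -0.86 to 5.93 for Perp, -3.66 to 3.00 for Trp63, -3.40 to 2.49 for Calml3, -0.61 to 2.41 for Dsg3, -1.57 to 2.33 for Krt14, -5.28 to 4.25 for Krt15, -1.30 to 6.82 for Krt5, -0.90 to 0.77 for Krt79, -1.56 to 3.01 for Krt1, -2.69 to 2.66 for Krt10, -1.56 to 3.00 for Krt17, -3.94 to 1.38 for Krt16, -3.78 to 2.56 for Krt6a and -4.64 to 1.07 for Krt6b. A listed 0 is no measured absence, and such zeros among genes that every cell uses did not follow depth.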
